A study of Mus musculus with 4 samples.

Results

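The neurons described here are dorsal root ganglion (DRG) cells with transcripts of both *Nefh*, the heavy neurofilament subunit, and *Pvalb*, the calcium buffer parvalbumin. They were chosen by counts. Among cells with at least 1500 genes, at most 10% mitochondrially encoded unique molecular identifier (UMI) counts and at least 5000 UMIs, a cell was a member when *Nefh* reached 5 and *Pvalb* reached 2 counts per 10000 UMIs of the cell (CP10K). Of 23691 deposited cells 17836 passed the filters, and 299 of these were Pvalb neurofilament neurons, 99 from Male-Sham, 93 from Female-Sham, 57 from Male-CCI and 50 from Female-CCI. All series of 4 values follow this order of libraries. *Pvalb* and *Nefh* chose the cells, so their levels are given as a description and were not tested.

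Large myelinated sensory neurons carry touch and proprioception from skin, muscle and joints, and their thick axons are packed with neurofilaments. Parvalbumin marks most proprioceptors, the afferents of muscle spindles and Golgi tendon organs, together with some low-threshold mechanoreceptors. Proprioceptors depend on neurotrophin-3 through its receptor TrkC, encoded by *Ntrk3*, and on the transcription factors Runx3 and Etv1. *Sprr1a*, a small proline-rich protein that is nearly silent in intact neurons, is switched on after axons are cut and is a common mark of an injured neuron.

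The 4 droplet libraries held GFP+ cells sorted from bilateral L4-5 DRGs of PirtEGFPf mice of C57BL/6 background aged 7 to 8 weeks, in which the promoter of *Pirt*, a membrane protein of primary sensory neurons, drives the reporter. Tissue was taken on day 7 after a chronic constriction injury (CCI) on both sides, in which ligatures are tied loosely around the sciatic nerve, or after sham surgery without ligation, and each library pooled 20 DRGs from 5 mice of one sex. All groups carry the same reporter allele. According to the study, DRG neurons without Pirt are mainly large NF200+ neurons, so the sort may hold only a part of this class. Males and females of a litter were operated alike, so litter and surgery cannot be told apart, and the spread between individual mice was not measured. Replicates of a surgery were its 2 libraries, 1 of each sex, and p-values measure the spread between these pools.

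The libraries held 195684124 to 237069156 UMIs in 4019 to 8035 cells. The members had a median of 79812, 55360, 71907 and 58819 UMIs per cell and 8313, 7473, 7877 and 7254.5 genes, and mitochondrially encoded transcripts took a median of 5.10%, 4.83%, 6.51% and 6.91% of their UMIs. *Xist* stood at 0, 98.7, 0.253 and 90.9 counts per 1000000 UMIs (CPM) over the members, which matched the sex in the labels. Of the 299 members 117 had a cell barcode that was also listed in another library, 61, 24, 32 and 0 by library. The cells under the same barcode elsewhere held a median of 0.681% of the member's UMIs, and of the 223 such cells 1 passed the filters. Members that shared a barcode were deeper than the others, for example 87006 against 52139.5 UMIs in Male-Sham. Counts of genes that passed the tests below are therefore also given without these cells.

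*Pvalb* (chromosome 15, 78191114 to 78206400, minus strand, GRCm38) had a median of 22.4 and 16.8 CP10K in the members of the sham libraries, and *Nefh* (chromosome 11, 4938754 to 4948064, minus strand) 23.8 and 23.5 CP10K. Of the members, 83, 66, 47 and 33 had *Pvalb* at 10 CP10K or more. Most *Nefh* cells had little or no *Pvalb*: 295, 429, 266 and 231 cells that reached the *Nefh* limit lay below the *Pvalb* limit. Members made up 25.1%, 17.8%, 17.6% and 17.8% of all *Nefh* cells.

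**Figure D1:**
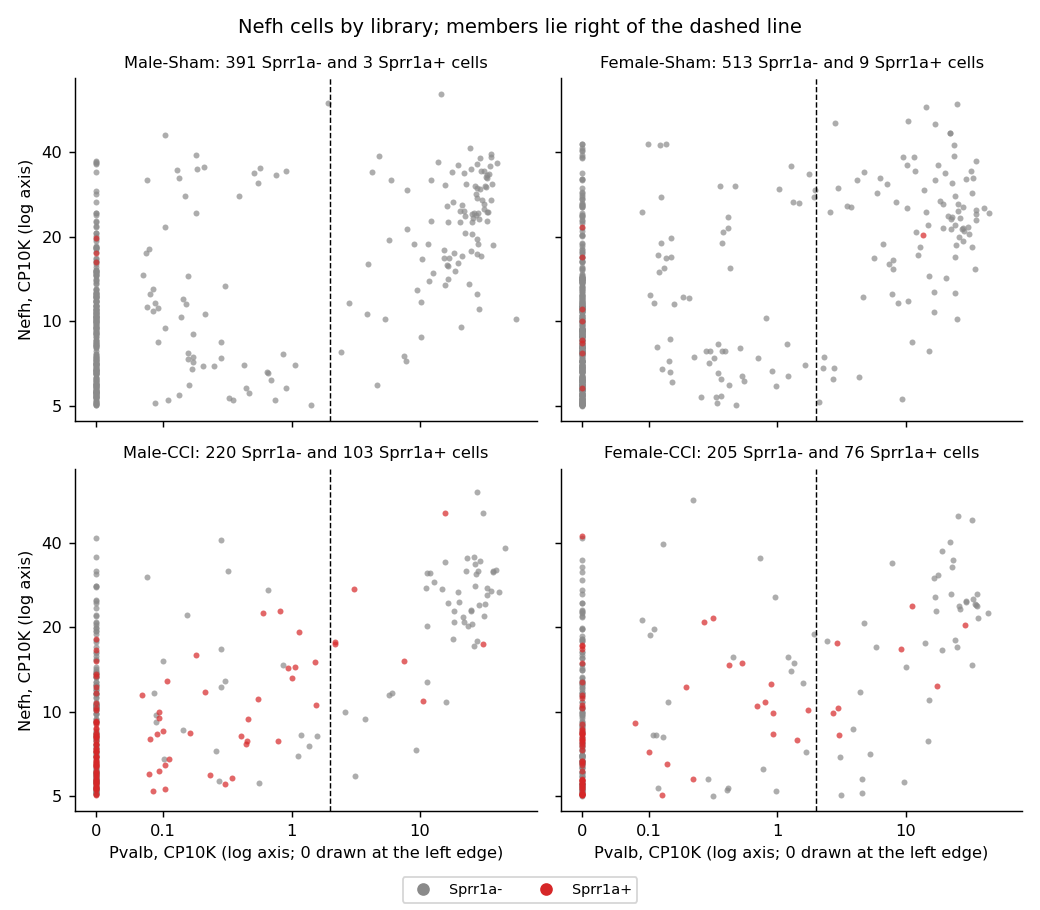
Each point is a cell with *Nefh* at 5 CP10K or more, with *Pvalb* on the horizontal and *Nefh* on the vertical log axis, 1 panel per library; *Sprr1a*+ cells are red and the dashed line marks 2 CP10K of *Pvalb*. Members lie right of the line, where 83, 66, 47 and 33 of 99, 93, 57 and 50 cells were at 10 CP10K or more and where red cells were 0, 1, 7 and 8.

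Markers that the rule did not use set the members apart in every library from *Nefh* cells below the *Pvalb* limit and from *Mrgprd* neurons, unmyelinated nociceptors of the skin (*Mrgprd* at 5 CP10K or more, *Nefh* below 5). *Runx3* was at 95.1, 81.5, 99.3 and 94.2 CPM in the members, at 1.16 to 2.47 CPM in the other *Nefh* cells, and at 0 in all *Mrgprd* neurons. *Runx3* UMIs were found in 81.8%, 76.3%, 78.9% and 82.0% of members. *Nxph1*, a secreted ligand of neurexins, was at 80.0, 43.9, 80.6 and 77.7 CPM against at most 1.76 CPM. *Spp1*, the secreted phosphoprotein osteopontin, was at 136, 103, 306 and 645 CPM against 3.61 to 76.7 CPM. *Ntrk3* was at 423 to 470 CPM against 108 to 146 CPM. *Shox2*, a homeodomain factor that was listed among mechanoreceptor markers, was also higher, at 124 to 190 CPM against 21.9 to 26.3 CPM. *Ntrk2*, the BDNF receptor TrkB of Aδ mechanoreceptors, went the other way, at 32.4 and 29.9 CPM in sham and at most 12.9 CPM in CCI members against 312, 256, 126 and 114 CPM. The *Pvalb* level in *Mrgprd* neurons, which should lack it, was 2.45, 0.671, 0.600 and 0 CPM at median depths of 36139.5, 20114, 72382 and 20776 UMIs. Both markers of the class outside its rule, *Runx3* and *Spp1*, were thus present. *Calb2*, a calcium buffer of some spindle afferents, had no UMI.

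The class was not uniform. Members with *Pvalb* below 10 CP10K had lower *Etv1* than those at 10 CP10K or more, 127, 154, 42.7 and 52.4 CPM against 722, 670, 701 and 684 CPM, and higher *Ntrk2*, 73.9, 54.0, 17.5 and 14.3 CPM against 26.2, 20.1, 12.2 and 11.1 CPM. *Ntrk3* was alike at both levels in the sham libraries, 507 and 506 CPM against 451 and 419 CPM, and lower at the low level in the CCI libraries, 151 and 273 CPM against 517 and 490 CPM. These values differed among cells that *Pvalb* had sorted, and were not tested.

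**Figure D2:**
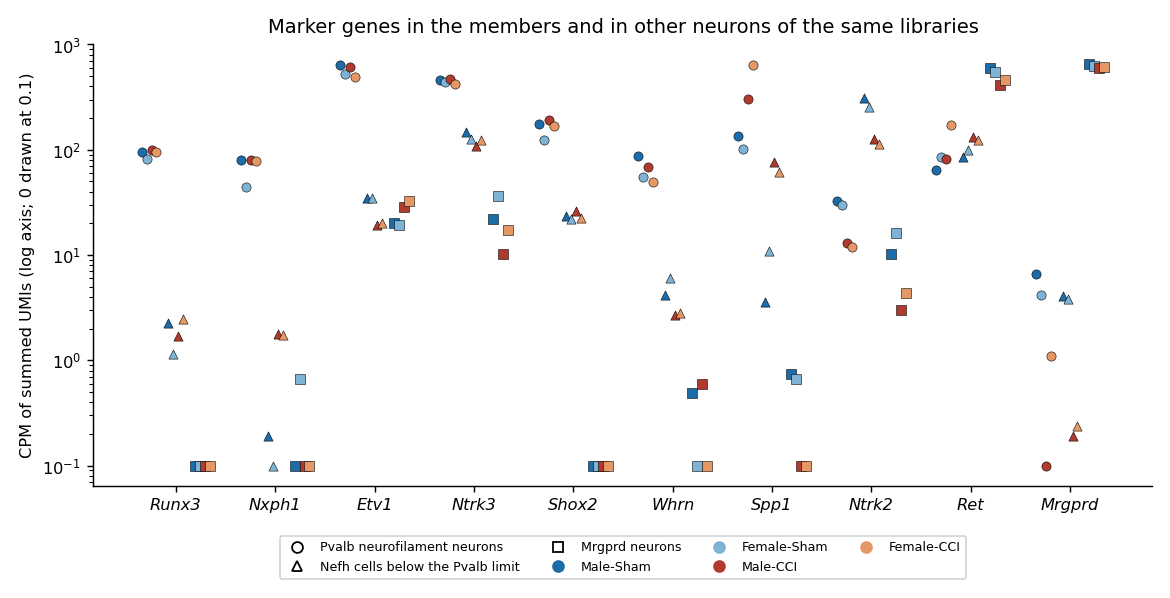
Level of 10 marker genes in CPM on a log axis (0 drawn at 0.1), with the members as circles, *Nefh* cells below the *Pvalb* limit as triangles and *Mrgprd* neurons as squares, and 1 color per library. The circles of *Runx3* lie between 81.5 and 99.3 CPM and the triangles between 1.16 and 2.47 CPM, while *Ntrk2* is lower in the circles than in the triangles of every library.

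Markers of other cell types were present. Leaving out members with 5 CP10K or more of *Tac1* or of 1 of 6 other subtype markers, or with 20 CP10K or more of the glial gene *Fabp7*, kept 59 of 99, 57 of 93, 43 of 57 and 41 of 50 members. *Tac1* UMIs were in 98.0% and 98.9% of sham members. The median was 3.33 and 2.09 CP10K in sham and 1.30 and 1.55 CP10K in *Sprr1a*- members. Sham members at 10 CP10K of *Pvalb* or more held 517 and 420 CPM, against 212 and 213 CPM in sham *Mrgprd* neurons without *Sprr1a* UMIs. Whether members made this *Tac1* RNA was not tested. The 8 satellite glia markers summed to 966 and 1256 CPM in the sham members, to 763 and 894 CPM in *Sprr1a*- members of CCI and to 1425 and 813 CPM in *Sprr1a*+ members, and single cells carried much of it, since 1 of 50 *Sprr1a*- members of Male-CCI held 58.4% of the *Apoe* UMIs. The 10 markers of nociceptors, itch neurons and C-low threshold mechanoreceptors summed to 81.7 and 88.3 CPM in sham, to 41.4 and 54.6 CPM in *Sprr1a*- members and to 32.3 and 40.3 CPM in *Sprr1a*+ members. The immune markers *Ptprc*, *Cd74* and *C1qa* were at 0 in all groups.

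Members were 2.53% of the cells that passed from Male-Sham (exact 95% binomial interval 2.06 to 3.08) and 1.44% of those from Female-Sham (1.17 to 1.77). After CCI they were 1.71% of the male (1.29 to 2.20) and 1.21% of the female library (0.896 to 1.59). The intervals cover counting error only. The share was lower after CCI within each sex, but Female-Sham lay below Male-CCI, so the groups overlapped.

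*Sprr1a* (chromosome 3, 92483952 to 92485895, minus strand) divided the members of CCI. A cell was *Sprr1a*+ above 1.718 CP10K, which is 1 on Seurat's default natural log scale, taken here as the scale of the study's limit. None of 99 Male-Sham members passed this limit, which allows a share of up to 3.03% at 3 cells (exact 95% upper limit 3.66%), and 1 of 93 did in Female-Sham. In Male-CCI 7 of 57 members were *Sprr1a*+ (12.3%, exact interval 5.08 to 23.7) and in Female-CCI 8 of 50 (16.0%, 7.17 to 29.1). The *Sprr1a*+ members ranged from 1.97 to 50.5 CP10K in Male-CCI and from 4.20 to 76.8 CP10K in Female-CCI, while the *Sprr1a*- members reached at most 1.37 and 1.53 CP10K. The nearest cells on both sides of the limit were thus 1.53 and 1.97 CP10K.

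The share in other neurons of the same libraries is a description, with no test. Of *Nefh* cells below the *Pvalb* limit, 96 of 266 (36.1%) in Male-CCI and 68 of 231 (29.4%) in Female-CCI were *Sprr1a*+, and of all other cells that passed 53.3% and 51.5%. Among *Mrgprd* neurons it was 0 of 29 and 1 of 15. Since *Pvalb* and *Sprr1a* come from the same cells, the share also depended on where the *Pvalb* limit stood. Among *Nefh* cells of CCI with *Pvalb* at 10 CP10K or more, 3 of 47 and 3 of 33 cells were *Sprr1a*+, from 3 to under 10 CP10K 2 of 7 and 2 of 13, and just inside the limit, from 2 to under 3 CP10K, 2 of 3 and 3 of 4. Just outside, from 1 to under 2 CP10K, 5 of 9 and 2 of 8 were *Sprr1a*+. The median *Pvalb* was 7.56 and 6.09 CP10K in *Sprr1a*+ members against 23.6 and 19.3 CP10K in *Sprr1a*- members, and the median *Nefh* 17.4 and 14.5 CP10K against 25.3 and 22.7 CP10K. Since the rule itself asks for *Pvalb*, few *Sprr1a*+ cells in the class and a lower *Pvalb* in *Sprr1a*+ cells cannot be told apart. At least 1 *Sprr1a* UMI was found in 71.9% and 72.0% of CCI members and in 2.02% and 10.8% of sham members. Such UMIs were also in 58.6% and 53.3% of *Mrgprd* neurons of CCI. Median depths were 71907 and 58819 UMIs in CCI members against 72382 and 20776 UMIs in these *Mrgprd* neurons. A UMI alone was therefore not read as expression.

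**Figure D3:**
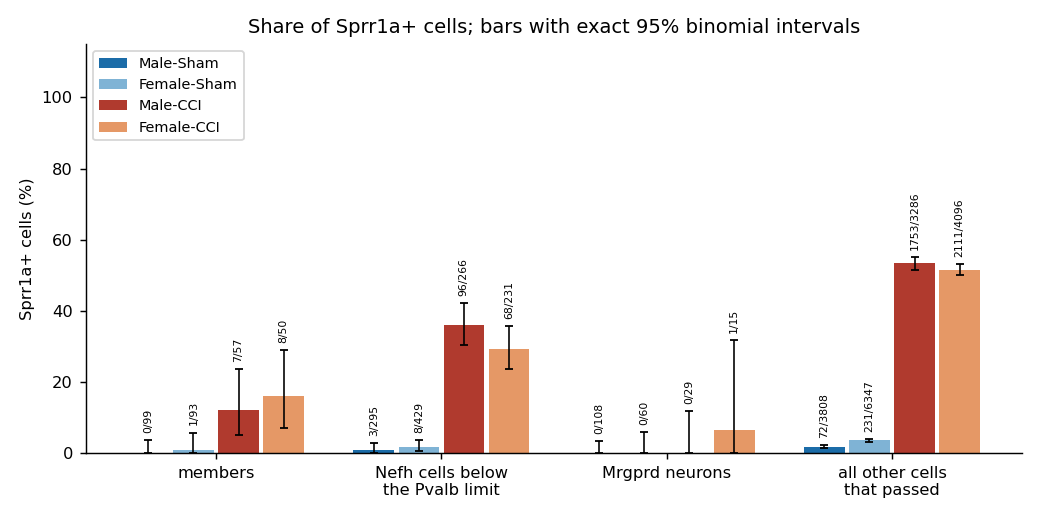
Share of *Sprr1a*+ cells in percent for the members, for *Nefh* cells below the *Pvalb* limit, for *Mrgprd* neurons and for all other cells that passed, 1 bar per library with exact 95% binomial intervals and the counts above. In the CCI libraries the members were at 12.3% and 16.0%, against 36.1% and 29.4% of the other *Nefh* cells and 53.3% and 51.5% of all other cells.

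AP-1 is a family of dimeric transcription factors that includes the product of *Jun*, and it is a well-known regulator in injured neurons. In the RefSeq sequence of GRCm38.p6, the 250 bases before the transcription start of *Sprr1a* hold the AP-1 motif TGACTCA, read on either strand as TGACTCA or TGAGTCA, at 146 and 116 bases upstream. Of 27 genes with a promoter in the tables, out of 36 that were higher in *Sprr1a*+ members (the growth, secreted factor and injury factor genes that passed, and the 10 with the largest increase), 2 held this motif, *Anxa10* and *Nts*, and 1 held the cAMP response element TGACGTCA, *Tubb2a*. Over all 32851 promoters the shares were 4.46% for AP-1 and 1.55% for the cAMP element. A match is a string of letters and no measured binding. The windows are printed 5′ to 3′ on the strand of the gene, with the motif in capitals, for the gene that divided the members and for 2 of the 3 higher genes with a match.
*Sprr1a*, chr3:92485966-92486052, minus strand: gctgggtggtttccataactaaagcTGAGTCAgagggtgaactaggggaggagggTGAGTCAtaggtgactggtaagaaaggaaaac
*Nts*, chr10:102490594-102490650, minus strand: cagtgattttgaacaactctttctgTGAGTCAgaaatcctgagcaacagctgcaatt
*Tubb2a*, chr13:34078035-34078092, minus strand: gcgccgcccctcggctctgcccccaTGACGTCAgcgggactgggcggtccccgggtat

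The first comparison asked what changed in CCI members that did not pass the *Sprr1a* limit. Of these, 68.0% and 66.7% held some *Sprr1a* UMI, against 2.02% and 10.8% of sham members. UMIs were summed over 50 *Sprr1a*- members of Male-CCI and 42 of Female-CCI and set against the 99 and 93 sham members. No marker of proprioceptors passed the test. *Runx3* stood at 95.1 and 81.5 CPM in sham and 105 and 96.9 CPM in *Sprr1a*- members, a log2 fold change of 0.26 ± 0.11 (SE), and *Etv1* at 645 and 520 against 647 and 545 CPM, 0.10 ± 0.12. *Spp1* stood at 136 and 103 CPM in sham and 219 and 598 CPM in *Sprr1a*- members (1.83 ± 0.74, edgeR adjusted p = 0.60), and it passed without Male-CCI (2.41), without Female-CCI (0.93) and thinned to 5000 UMIs (1.64). The 11 proprioceptor markers tested had a median log2 fold change of 0.26 against -0.0030 over all genes. A gene passed, here and below, at an adjusted p below 0.05 with an absolute log2 fold change above 0.5 (edgeR quasi-likelihood, Benjamini-Hochberg), and 53 of 11329 genes did, 36 higher (0.318%) and 17 lower (0.15%), which is 0.468% of the genes tested together.

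Named by the size of their change, the genes that rose were *Nme7*, *Itpr1*, *Serpina3n*, *Ncam2*, *Smim3*, *Abca1*, *Lars2*, *Camk1*, *Adcyap1* and *Ocel1*. *Nme7*, a member of the nucleoside diphosphate kinase family found at centrosomes, rose from 5.15 and 6.62 CPM to 21.4 and 30.7 CPM (log2 2.21 ± 0.25, edgeR adjusted p = 0.000706), and its UMIs were in 76.0% and 69.0% of *Sprr1a*- members against 27.3% and 28.0% of sham members. The CCI and sham values did not overlap. *Itpr1*, the inositol trisphosphate receptor that releases calcium from the endoplasmic reticulum, rose from 8.77 and 12.8 to 28.8 and 26.9 CPM (1.47 ± 0.21). *Serpina3n*, a secreted serine protease inhibitor, rose from 38.7 and 50.8 to 93.5 and 122 CPM (1.34 ± 0.17), though 1 cell held 21.7% and 30.5% of its UMIs in Male-CCI and Female-CCI. *Adcyap1*, the gene of the neuropeptide PACAP, went from 85.9 and 89.1 to 147 and 146 CPM (0.81 ± 0.10, edgeR adjusted p = 0.00181). The range over the alternatives was 2.6e-09 to 0.71 for the adjusted p of *Adcyap1* and 4.1e-17 to 0.029 for that of *Nme7*.

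The genes that fell most were *Scn10a*, *Acpp*, *Ntrk2*, *Prkca*, *Nrep*, *Nbl1*, *Tle4*, *Ano3*, *Kcnip3* and *Cd55*. *Scn10a*, the sodium channel Nav1.8 of nociceptors, fell from 24.5 and 29.5 CPM to 2.47 and 8.11 CPM (log2 -2.42 ± 0.37), *Acpp*, an acid phosphatase of nonpeptidergic nociceptors, from 19.1 and 22.5 to 4.66 and 8.96 CPM (-1.61 ± 0.27), and *Cd55* from 46.6 and 46.2 to 24.4 and 29.0 CPM (-0.74 ± 0.15). These are genes of other neurons: *Scn10a* stood at 716, 716, 414 and 449 CPM and *Cd55* at 909, 926, 699 and 698 CPM in *Mrgprd* neurons, which themselves were 108, 60, 29 and 15 cells of the 4 libraries. The part of such RNA in these decreases was not tested. *Ntrk2* fell from 32.4 and 29.9 to 13.4 and 13.7 CPM (-1.14 ± 0.18), and among *Nefh* cells below the *Pvalb* limit it stood at 312 and 256 CPM in sham and 126 and 114 CPM in CCI.

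Genes of the injury, growth and secreted factor lists are set here beside the 0.318% of all genes that passed as higher in *Sprr1a*- members. The median log2 fold changes of these lists were 0.17, 0.38 and 0.83, against -0.0030 over all genes. Among 12 injury transcription factors tested none passed, and *Atf3* stood at 134 and 202 CPM against 118 and 80.5 CPM in sham (log2 0.81 ± 0.32, edgeR adjusted p = 0.53), and it passed in 5 of 17 alternatives, among them without Male-Sham (1.12) and without Female-Sham (0.57). Of 22 growth genes 1 was higher, *Tnfrsf12a*, a cytokine receptor that promotes neurite outgrowth, which rose from 10.0 and 6.82 to 20.8 and 18.4 CPM (1.27 ± 0.23). *Gap43*, a protein of growth cones, stood at 89.7 and 368 CPM against 48.7 and 68.6 CPM (2.02 ± 1.03, edgeR adjusted p = 0.67). It passed thinned to 5000 UMIs (1.39) and without Male-CCI (2.75), and 1 cell held 33.3% of its UMIs in Male-CCI and 22.2% in Female-CCI. Among 10 neuropeptides and secreted factors *Adcyap1* passed. *Gal*, the neuropeptide galanin, was at 35.9 and 49.9 CPM against 10.7 and 18.7 CPM (1.63 ± 0.28, edgeR adjusted p = 0.075), and *Gal* UMIs were in 86.0% and 90.5% of *Sprr1a*- members against 21.2% and 29.0% of sham members. *Mrgprd* neurons without any *Sprr1a* UMI had *Gal* at 29.2 and 31.6 CPM in CCI and 19.2 and 8.52 CPM in sham, with *Gal* UMIs in 50.0% of 12 and 42.9% of 7 such CCI cells. The part of free RNA in the *Gal* level of the members was not tested. *Gal* passed in 9 of 17 alternatives, DESeq2 and leaving out either sham library among them. *Nts*, neurotensin, was at 46.9 and 90.9 CPM against 4.87 and 5.82 CPM (3.74 ± 0.45, edgeR adjusted p = 0.091), but 1 cell held 69.6% and 61.0% of its UMIs. *Nts* passed in 13 of 17 alternatives, including DESeq2 (3.77) and each library left out (3.20 to 4.19). None of 20 potassium channel, 4 HCN channel, 12 calcium channel, 6 mechanotransduction, 15 synaptic release and 5 intermediate filament genes passed, and of 11 sodium channel genes *Scn10a* alone did.

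These calls were fragile. Of 28 named genes that passed, *Nme7* kept its call under all alternatives, 5 kept it when CCI members with any *Sprr1a* UMI were left out (23 genes passed in all), and 4 without the members that shared a barcode (16 genes passed). The count of genes that passed was 307 without Male-Sham, 177 without Female-Sham, 102 without Male-CCI and 46 without Female-CCI.

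The second comparison took the *Sprr1a*+ members, 7 cells of Male-CCI with 309674 UMIs and 8 cells of Female-CCI with 397129 UMIs, against the same sham members, so both comparisons share their controls. Of the gene lists, 17 of 22 growth and regeneration genes and 6 of 12 injury transcription factors rose and none fell. Of 15 genes of synaptic release 5 fell and 1 rose, and of 11 sodium channel genes 6 fell and 1 rose. In all 1710 of 10505 genes tested passed, 966 higher and 744 lower, or 16.3% (9.2% and 7.08%), and the median log2 fold change over all genes was -0.080. Cells chosen by a gene of the injury response are compared here, and 4 of 7 and 5 of 8 of them had *Pvalb* below 10 CP10K against 16 of 99 and 27 of 93 in sham. With members at 10 CP10K or more alone, 3 and 3 *Sprr1a*+ cells remained and 287 genes passed. Without members that shared a barcode 433 genes passed. Leaving out cells of mixed identity kept 59 of 99 and 57 of 93 sham members. It kept 6 of 7 and 8 of 8 *Sprr1a*+ members, and 1045 genes passed. The part of RNA of other cells in the decreases was not tested.

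Of 22 growth and regeneration genes tested 17 rose and none fell, with a median log2 fold change of 3.01. Over all genes tested 9.2% rose and 7.08% fell. *Gap43* (chromosome 16, 42248442 to 42340651, minus strand) rose from 48.7 and 68.6 CPM to 1660 and 2105 CPM (5.27 ± 0.19, edgeR adjusted p = 2.15e-08). Its UMIs were in 6 of 7 and 8 of 8 cells, at a median of 9.11 and 18.1 CP10K against 0.110 and 0.121 CP10K in sham, and the largest cell held 40.1% and 28.5% of them. *Flrt3*, an adhesion molecule of axons, rose from 17.1 and 18.1 to 300 and 244 CPM (4.20 ± 0.18), *Stmn4*, a microtubule regulator, from 27.6 and 29.9 to 191 and 166 CPM (2.88 ± 0.18), and *Tubb2b*, a neuronal beta-tubulin, from 53.2 and 75.3 to 549 and 395 CPM (3.13 ± 0.20). All of these groups were apart without overlap. *Gap43*, *Flrt3*, *Stmn4* and *Tubb2b* kept their call under every alternative.

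Of 12 injury transcription factors tested 6 rose and none fell, where 9.2% of all genes tested rose and 7.08% fell. *Atf3* (chromosome 1, 191170296 to 191218039, minus strand), a stress-induced factor of injured neurons, rose from 118 and 80.5 CPM to 417 and 582 CPM (log2 2.59 ± 0.22, edgeR adjusted p = 3.53e-05), and 6 of 7 and 8 of 8 cells held its UMIs. *Sox11*, a factor of developing and regrowing neurons, rose from 21.7 and 37.5 to 313 and 262 CPM (3.55 ± 0.26). *Jun* rose by 1.42 ± 0.17, *Klf6* by 1.75 ± 0.23, *Smad1* by 1.50 ± 0.19 and *Stat3* by 0.59 ± 0.15 on the log2 scale. *Atf3* and *Sox11* kept their call under every alternative, and *Jun* lost it thinned to 5000 UMIs and under the stricter member rule (*Nefh* at 10 and *Pvalb* at 5 CP10K).

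Of 12 neuropeptides and secreted factors 7 rose and 2 fell, where 9.2% of all genes tested rose and 7.08% fell. *Gal* (chromosome 19, 3409915 to 3414544, minus strand) rose from 10.7 and 18.7 CPM to 1579 and 821 CPM (log2 6.63 ± 0.52, edgeR adjusted p = 0.00556), but 1 cell held 49.7% and 77.9% of its UMIs, and the median cell was at 6.07 and 2.05 CP10K. *Nts* rose from 4.87 and 5.82 to 811 and 418 CPM (7.08 ± 0.35), with 41.4% and 68.1% of its UMIs in 1 cell. *Npy*, neuropeptide Y, rose from 0.557 and 0 to 67.8 and 25.2 CPM (7.18 ± 0.78), on 21 and 10 UMIs in 4 and 3 cells. *Csf1* (chromosome 3, 107741048 to 107760469, minus strand), a cytokine that acts on microglia and macrophages, rose from 1.39 and 2.01 to 110 and 63.0 CPM (5.90 ± 0.42), in 5 of 7 and 6 of 8 cells. *Adcyap1* rose from 85.9 and 89.1 to 242 and 468 CPM (2.31 ± 0.25), and *Bdnf* by 1.32 ± 0.25 on the log2 scale. Thinned to 5000 UMIs, *Bdnf* turned to -0.82. *Calca* and *Calcb*, the genes of calcitonin gene-related peptides, fell by 2.03 ± 0.43 and 2.19 ± 0.45 on the log2 scale. Single sham cells held 21.6% and 37.4% of the *Calca* UMIs, and the median cell was at 0.711 and 1.04 CP10K of *Calca* in sham against 0.607 and 1.18 CP10K in *Sprr1a*+ members. *Reg3b*, a secreted lectin, came from 1 cell in each library, at 1808 and 149 CPM (edgeR adjusted p = 0.15), and passed in 5 alternatives, among them DESeq2. Among members at 10 CP10K of *Pvalb* or more, *Csf1* and *Nts* kept their call at a log2 fold change of 3.99 and 3.77, and *Gal* lost it at 7.52 (edgeR adjusted p = 0.33, between 2.2e-259 and 0.33 over its alternatives).

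Receptors for trophic factors changed in part, 4 of 11 higher and 1 lower, where 9.2% of all genes tested rose and 7.08% fell. *Ret*, the signaling receptor for GDNF family ligands, rose from 64.9 and 84.9 to 255 and 320 CPM (log2 2.21 ± 0.18), and *Gfra1*, its co-receptor for GDNF, from 37.8 and 57.8 to 436 and 499 CPM (3.56 ± 0.20). *Gfra3* and *Il6st* rose by 1.28 ± 0.39 and 0.83 ± 0.20. *Ntrk2* fell by 2.61 ± 0.54, to 6.46 and 2.52 CPM, which is 2 and 1 UMIs. *Ntrk3* stood at 316 and 368 CPM against 458 and 445 CPM (-0.14 ± 0.14, edgeR adjusted p = 0.54). *Ret* and *Gfra1* kept their call under every alternative.

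Of 11 proprioceptor markers 2 rose and 3 fell, where 9.2% of all genes tested rose and 7.08% fell. *Spp1* (chromosome 5, 104435118 to 104441050, plus strand) rose from 136 and 103 CPM to 1334 and 922 CPM (log2 3.48 ± 0.19, edgeR adjusted p = 3.26e-07), and *Tox* by 3.54 ± 1.00. *Tox* rested on 2 UMIs in 1 of 7 cells of Male-CCI, under the floor of 3 UMIs, and on 5 UMIs in 4 of 8 cells of Female-CCI. One cell held 63.9% and 28.4% of the *Spp1* UMIs, and the median cell was at 1.63 and 8.49 CP10K against 0.624 and 0.502 CP10K in sham. *Etv1* (chromosome 12, 38779380 to 38870484, plus strand) fell from 645 and 520 to 239 and 166 CPM (-1.29 ± 0.18), *Whrn*, a scaffold protein, from 86.8 and 55.4 to 16.1 and 25.2 CPM (-1.50 ± 0.43), and *Fxyd7*, a modulator of the sodium pump, by 0.96 ± 0.21. One cell held 63.5% and 77.3% of the *Etv1* UMIs. *Whrn* rested on 5 and 10 UMIs, in 2 of 7 and 1 of 8 cells. *Runx3* (chromosome 4, 135120652 to 135177990, plus strand) was at 32.3 and 78.1 CPM against 95.1 and 81.5 CPM (-0.36 ± 0.29, edgeR adjusted p = 0.44), which is 10 and 31 UMIs, and its value ranged from -1.26 without Female-CCI, where it passed, to 0.048 without Male-CCI. Among members at 10 CP10K of *Pvalb* or more, *Etv1*, *Whrn* and *Spp1* lost their call, at log2 fold changes of -0.57, -0.65 and 1.53, and *Runx3* turned to 0.21. *Spp1* also lost it without members that shared a barcode.

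Of 19 voltage-gated potassium channel genes 7 fell and none rose, where 7.08% of all genes tested fell and 9.2% rose. *Kcna2*, the Kv1.2 channel of myelinated axons, fell from 412 and 430 CPM to 96.9 and 50.4 CPM (log2 -2.31 ± 0.21, edgeR adjusted p = 1.25e-05), and its median per cell was 1.09 and 0.366 CP10K against 3.97 and 3.91 CP10K in sham. *Kcnab2*, its beta subunit, fell by 1.46 ± 0.16, from 468 and 471 to 161 and 128 CPM. *Kcna1*, which pairs with *Kcna2* in these axons, was at 174 and 131 CPM against 171 and 209 CPM (-0.08 ± 0.19, edgeR adjusted p = 0.83). *Kcna2* and *Kcnab2* kept their call under every alternative, including members at 10 CP10K of *Pvalb* or more, where *Kcna2* changed by -1.37.

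Of 11 sodium channel genes 6 fell and 1 rose. *Scn11a*, 1 of those that fell, had no UMI in *Sprr1a*+ members against 23.7 and 26.3 CPM in sham. *Scn1a* and *Scn8a*, the Nav1.1 and Nav1.6 channels of large fibers, fell from 200 and 179 to 110 and 70.5 CPM (log2 -0.85 ± 0.20) and from 269 and 263 to 142 and 138 CPM (-0.67 ± 0.16). *Scn4b*, the beta4 subunit, fell from 156 and 125 to 38.7 and 30.2 CPM (-1.80 ± 0.26), and *Scn9a*, Nav1.7, rose by 0.83 ± 0.17. Thinned to 5000 UMIs, *Scn9a* turned to -0.036. *Scn1a*, *Scn8a* and *Scn4b* lost their call among members at 10 CP10K of *Pvalb* or more. Of 11 calcium channel genes 2 rose and 2 fell, where 9.2% of all genes tested rose and 7.08% fell. *Cacna2d1*, the alpha2delta1 subunit and target of gabapentin, rose from 73.6 and 92.7 to 478 and 405 CPM (2.66 ± 0.16, edgeR adjusted p = 1.94e-07) and kept its call under every alternative. Of 4 HCN channel genes *Hcn2* fell by 1.87 ± 0.35. Of 6 mechanotransduction genes *Asic1* and *Asic3* fell by 1.22 ± 0.24 and 1.73 ± 0.48. *Asic3* rested on 2 UMIs in 2 of 7 cells of Male-CCI, under the floor of 3 UMIs, and on 6 UMIs in 1 of 8 cells of Female-CCI. *Piezo2*, the channel of touch and proprioception, was at 145 and 305 CPM against 160 and 168 CPM (0.75 ± 0.25, edgeR adjusted p = 0.077), and passed without Male-Sham, Female-Sham or Male-CCI (0.64, 0.73 and 1.12).

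Of 15 genes of synaptic release 5 fell and 1 rose, where 7.08% of all genes tested fell and 9.2% rose. *Snap25*, a vesicle fusion protein, fell from 2592 and 2405 to 1046 and 990 CPM (log2 -1.04 ± 0.11, edgeR adjusted p = 3.8e-05), *Syt2* and *Vamp1*, the fast calcium sensor and its partner, by 0.97 ± 0.15 and 1.18 ± 0.16, and *Slc17a7*, the vesicular glutamate transporter VGLUT1, from 434 and 348 to 210 and 232 CPM (-0.57 ± 0.16). *Syt4* rose from 360 and 358 to 1037 and 1065 CPM (1.80 ± 0.12). *Nefl* and *Nefm*, the light and medium neurofilament subunits, stood at 4214 and 5288 CPM against 4296 and 5443 CPM and at 2910 and 2699 CPM against 3277 and 3789 CPM, and neither passed. *Vim*, vimentin, rose by 1.72 ± 0.29. Of the calcium-binding list *S100a10* and *S100a11* rose by 2.20 ± 0.12 and 5.03 ± 0.23.

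**Figure D4:**
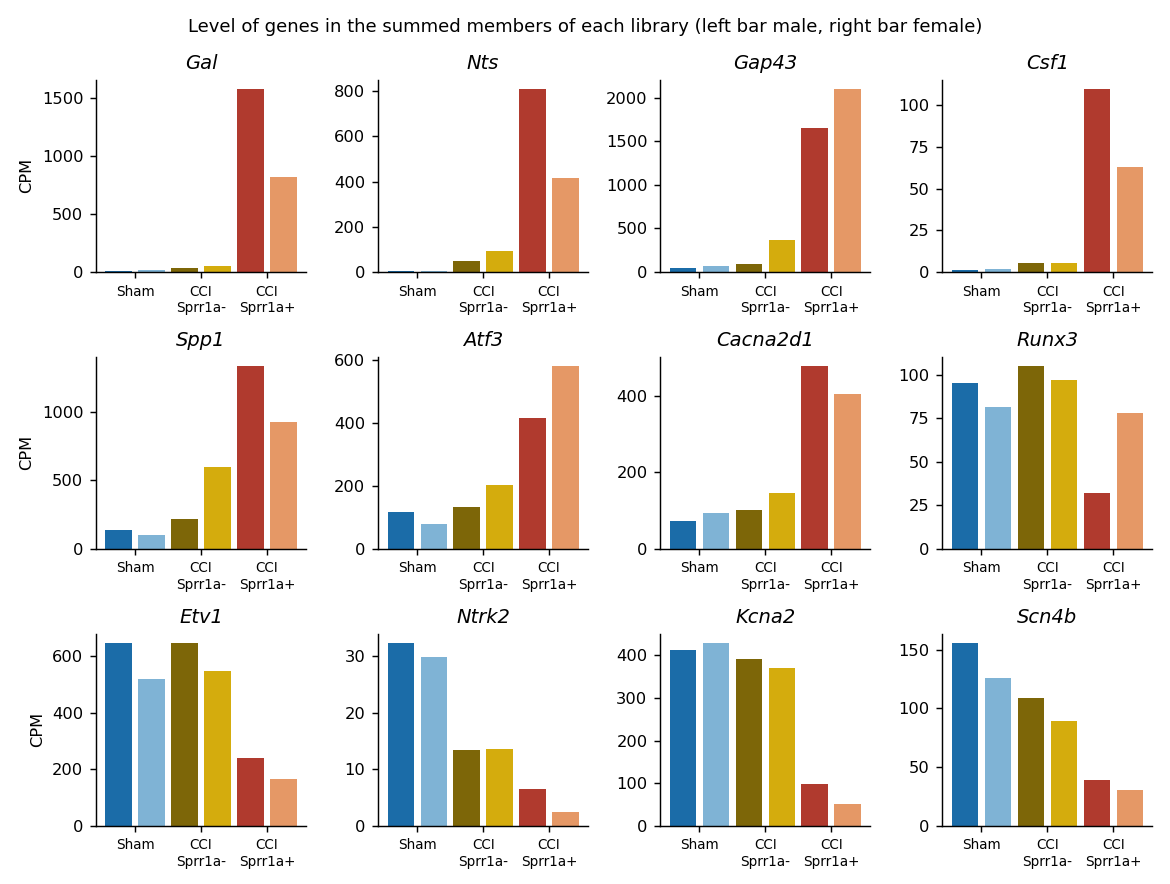
Level of 12 genes in CPM over the summed members, for sham, *Sprr1a*- members of CCI and *Sprr1a*+ members of CCI, with the male library left and the female library right in each pair; the axes start at 0 and differ between genes. *Gap43* stood at 48.7 and 68.6, 89.7 and 368, and 1660 and 2105 CPM, while *Kcna2* stood at 412 and 430, 391 and 371, and 96.9 and 50.4 CPM.

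By size of change alone, the genes that rose most in *Sprr1a*+ members were *Anxa10*, *Slc6a4*, *Lrat*, *Cyp26a1*, *Npy*, *Nts*, *Grp*, *Gal*, *Fst* and *Csf1*. *Anxa10*, an annexin, and *Slc6a4*, the serotonin transporter, had no UMI in sham members and stood at 54.9 and 20.1 CPM and at 32.3 and 17.6 CPM, which is at least 152-fold and 101-fold higher when sham is set at 3 UMIs over the group (0.246 CPM). These bounds take the CCI mean as exact. *Anxa10* rested on 17 and 8 UMIs in 2 of 7 and 3 of 8 cells, and *Slc6a4* on 10 and 7 UMIs in 2 of 7 and 4 of 8 cells. In Male-CCI 1 cell held 76.5% of the *Anxa10* and 80.0% of the *Slc6a4* UMIs. *Lrat*, *Cyp26a1* and *Grp* rested on 8, 3 and 4 UMIs of 1 cell each in Male-CCI. In Female-CCI these 3 genes rested on 9, 17 and 12 UMIs in 2, 4 and 4 of 8 cells. A gene at 0 in 1 group could reach the 20 CPM needed for naming only through the other group. *Fst*, follistatin, an inhibitor of activin, rose from 0.835 and 2.81 to 139 and 138 CPM (log2 6.60 ± 0.37), with 81.4% of its UMIs in 1 cell of Male-CCI. The genes that fell most were *Chodl*, *Kazald1*, *Dock10*, *Scn11a*, *Foxp2*, *Cmpk2*, *Klhdc8b*, *Acpp*, *Hpca* and *Rab37*. *Chodl*, a membrane lectin, had no UMI in the 15 cells against 82.0 and 128 CPM in sham, at least 24.7-fold lower with CCI set at 3 UMIs over the group (4.24 CPM). *Chodl* UMIs were in 56.6% and 57.0% of sham members and 44.0% and 38.1% of *Sprr1a*- members of CCI. *Kazald1* and *Dock10* were at least 7.13-fold and 6.99-fold lower, with UMIs in 82.0% and 64.3% and in 76.0% and 50.0% of *Sprr1a*- members. *Chodl* lost its call in several alternatives, and *Kazald1* and *Dock10* kept theirs in all.

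**Figure D5:**
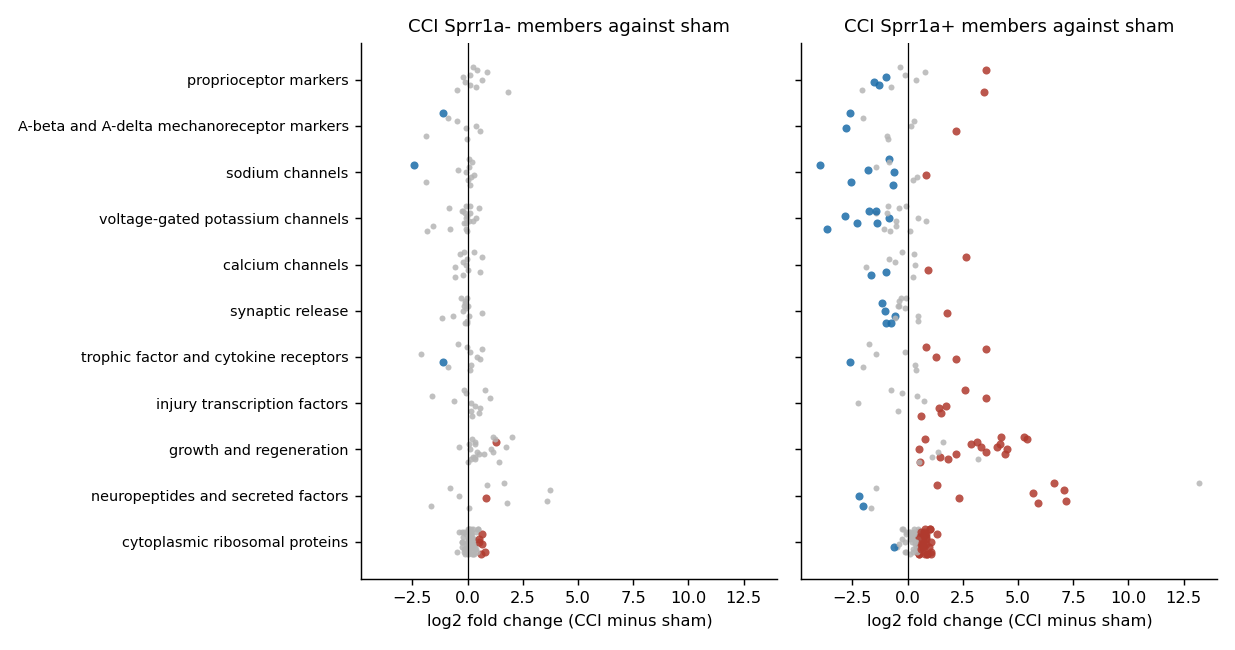
Log2 fold change of the genes of 11 lists, CCI minus sham, left for *Sprr1a*- members and right for *Sprr1a*+ members; points in red or blue passed the test, gray points did not, and genes with 0 UMIs in a group are drawn at their bound. In the growth list 1 of 22 genes passed on the left and 17 of 22 on the right, and the gray point at 13.2 is *Reg3b*, carried by 1 cell in each library.

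Of 142 named genes that passed in *Sprr1a*+ members, 29 kept the call under all alternatives, 55 of 135 without shared barcodes and 50 of 134 among members at 10 CP10K of *Pvalb* or more. The count of genes that passed fell to 1072 without Male-Sham and 1078 without Female-CCI.

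The third comparison took all members of CCI, with both kinds of cells, against sham. Of 11356 genes 136 passed, 100 higher (0.881%) and 36 lower (0.317%), or 1.2% together. *Gal*, *Nts*, *Npy*, *Csf1* and *Adcyap1* rose, 5 of 11 secreted factors, for example *Gal* to 157 and 162 CPM (log2 3.57 ± 0.20) and *Nts* to 107 and 138 CPM (4.61 ± 0.19). Single cells weighed on both genes. *Sprr1a*+ members gave 489 and 326 *Gal* UMIs, with 49.7% and 77.9% in 1 cell, and *Sprr1a*- members 131 and 117. For *Nts*, 1 cell held 41.4% and 68.1% of the UMIs of *Sprr1a*+ members and 69.6% and 61.0% of those of *Sprr1a*- members. In the growth list 6 of 24 genes rose, among them *Cdkn1a*, a cell cycle inhibitor induced by stress (1.71 ± 0.18), and *Stmn2* (0.80 ± 0.14), and of the 12 injury factors *Jun* and *Smad1* rose by 0.67 ± 0.13 and 0.63 ± 0.11. *Gap43* was at 213 and 620 CPM and did not pass (2.92 ± 0.85, edgeR adjusted p = 0.42), but passed in DESeq2 (2.93), thinned to 5000 UMIs (2.58) and without either CCI library (3.53 and 1.94). The 7 *Sprr1a*+ cells of Male-CCI and 8 of Female-CCI held 309674 of 3957065 and 397129 of 2739824 UMIs summed over the members. None of the 11 proprioceptor markers, the 20 potassium channel and the 12 calcium channel genes tested passed. The count of genes that passed was 301 without Male-CCI, 85 without Female-CCI and 42 without members that shared a barcode.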

How the data were processed

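Droplet libraries (10x, 3′ chemistry) of GFP+ DRG cells from 4 pools, 1 per sex and surgery, were used. According to the methods the authors aligned reads to mm10 with Cell Ranger, and the deposited values are raw UMI counts of 31053 genes in each called cell. Cell Ranger is given as 3.0.2 in the file headers and as 2.1.1 in the submitters' processing notes. Gene positions came from GENCODE release 21 of GRCm38, and promoters from RefSeq.

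The members, gene lists, limits and tests were chosen with earlier results of these data known. Cells needed 1500 genes, 5000 UMIs and at most 10% mitochondrial UMIs. Counts of the members were summed per library, and edgeR 4.0.16 (R 4.3.3, limma 3.58.1) tested the 2 CCI against the 2 sham libraries (robust quasi-likelihood) with TMM, its filter on low counts and Benjamini-Hochberg adjustment over all genes tested. *Pvalb*, *Nefh* and *Sprr1a* were left out of the tests. Libraries were the replicates, never cells. *Sprr1a*+ against *Sprr1a*- members within CCI and members against other cells were described and not tested. For a gene at 0 in all libraries of a group, the fold was bounded with 3 UMIs over that group. With 3 UMIs a library of the summed members has a floor of 0.418 to 1.28 CPM in sham and *Sprr1a*- members and of 9.69 and 7.55 CPM in *Sprr1a*+ members.

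Named were genes of the lists, and the 10 called genes with the largest change in each direction among those with a mean of 20 CPM or more in a group, the same direction in both sexes and an established symbol. Scrublet in scanpy 1.11.5 marked 2, 121, 0 and 0 cells by its automatic limit and so had not worked, and no doublets were removed. Leaving out the top 10% of scores was an alternative. The others were DESeq2 1.42.0, its size factors, low counts kept, a replicate block of sex, cells of mixed identity left out, stricter and looser rules, cells thinned to 5000 UMIs, other *Sprr1a* limits, and each library left out. Leaving out shared barcodes and members with *Pvalb* below 10 CP10K was added after seeing the data. On simulated data with 100 genes changed by a log2 of 1 and 100 by 2, the test recovered 86% and 99% for all members, 83% and 100% for *Sprr1a*- members and 40% and 82% for *Sprr1a*+ members, with 10, 6 and 3 unchanged genes called among 11154, 11140 and 10129. The changed genes had a mean of 20 counts or more. Counts were drawn per library around a common mean of each group with the fitted dispersion. Sex differences and single cells that hold much of a gene were not simulated, so the rates do not cover them. Python 3.11.15 was used with numpy 2.4.6, scipy 1.17.1, pandas 2.3.3 and matplotlib 3.10.9. Behavior, electrophysiology and clusters of the whole data set were not analysed here.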

Additional observations from a re-analysis of the deposited data

How the results depend on the processing

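The count of genes that passed depended on the processing. For all members (136 genes) it was 405 with no filter on low counts, 44 without the top Scrublet scores, 69 without cells of mixed identity, 294 with the looser rule, 51 with cells thinned to 5000 UMIs, 42 without shared barcodes and 85 to 301 with 1 library left out. For *Sprr1a*- members (53 genes) it was 235 with no filter, 20 without the top Scrublet scores, 109 with the stricter rule, 25 thinned, 23 without CCI members with any *Sprr1a* UMI, 16 without shared barcodes, 95 with *Pvalb* at 10 CP10K or more and 46 to 307 with 1 library left out. For *Sprr1a*+ members (1710 genes) it was 1045 without mixed identity, 301 with the stricter rule, 2832 with the looser rule, 141 thinned, 433 without shared barcodes, 287 with *Pvalb* at 10 CP10K or more and 1072 to 1447 with 1 library left out. DESeq2 called 125, 54 and 1345 genes. A lone library of a surgery was assumed to vary like the other group. Fewer cells enter most of these fits, and other causes were not tested. The mixed identity alternative left 59, 57, 43 and 41 members, so it took more cells from sham. The member share of Female-CCI was 0.844% under the stricter rule, and the share with any *Sprr1a* UMI 71.9% and 72.0%.

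With sex as a replicate block, which pairs the male and the female libraries, 483, 162 and 1825 genes passed for all, *Sprr1a*- and *Sprr1a*+ members. The labels give no replicate numbers, and male minus female deviations correlated between surgeries at 0.16, 0.17 and 0.014 over 8682, 8374 and 2327 genes, with only 2 pairs.

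Of the genes that had passed, *Apoe* turned sign in *Sprr1a*- members, and *Bdnf*, *Rps20*, *Scn9a*, *Stmn1* and *Atp5g2* did in *Sprr1a*+ members. For all members no gene that had passed did so. Log2 fold changes of named genes that turned sign are listed here. For all members they were, with the looser rule, *Calca* 0.12, *Etv1* -0.080 and *Ntrk3* -0.061, thinned, *Esrrg* -0.11 and *Ntrk3* -0.031, without the top Scrublet scores, *Nefm* -0.015 and *Ntrk3* -0.0027, with no filter, *Etv1* -0.0043, and with a library left out *Etv1* (-0.13 to 0.18) and *Nefm* (-0.0097 to 0.20). For *Sprr1a*- members they were, without any *Sprr1a* UMI, *Apoe* 0.58, *Esrrg* -0.050, *Etv1* -0.089 and *Nefm* -0.018, with the looser rule *Calca* 0.30 and *Ntrk3* -0.022, thinned *Esrrg* -0.12 and *Ntrk3* -0.070, without the top Scrublet scores *Kcna2* 0.0090 and *Nefm* -0.0088, with the stricter rule *Kcna2* 0.048, with *Pvalb* at 10 CP10K or more *Kcna2* 0.0097, and with a library left out *Etv1* (-0.042 and -0.0089, up to 0.27). For *Sprr1a*+ members they were, thinned, *Bdnf* -0.82, *Ntrk3* 0.10, *Nxph1* -1.60, *Rps20* -0.041, *Runx3* 0.36, *Scn9a* -0.036, *Shox2* -1.04 and *Stmn1* -0.0071, with *Pvalb* at 10 CP10K or more *Atp5g2* -0.0072, *Nefl* -0.48, *Ntrk3* 0.15, *Runx3* 0.21 and *Shox2* -0.33, without shared barcodes *Ntrk3* 0.22 and *Runx3* 0.18, with the stricter rule *Ntrk3* 0.015 and *Shox2* -0.16, with the looser rule *Nxph1* -0.066, without mixed identity *Nefl* -0.20, and with a library left out *Nefl* (-0.013 and -0.0018, up to 0.36), *Runx3* (-1.26 to 0.048) and *Shox2* (-0.11 to 0.36).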

Other observations

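Of 13 mitochondrially encoded genes 6 rose in *Sprr1a*- members and none passed as lower, with a median log2 fold change of 0.59, and 5 rose in *Sprr1a*+ members with a median of 0.58. Over all genes tested, 0.318% rose in *Sprr1a*- members and 9.2% in *Sprr1a*+ members. *mt-Nd3*, a subunit of complex I, rose from 440 and 498 CPM in sham to 946 and 881 CPM in *Sprr1a*- members (1.03 ± 0.10, edgeR adjusted p = 0.000233) and *mt-Nd2* from 1499 and 1584 to 2777 and 2836 CPM (0.94 ± 0.10). *mt-Nd4l* was at 367 and 328 CPM against 462 and 398 CPM and did not pass. The share of mitochondrial UMIs per cell, a usual sign of RNA quality, had a median of 5.10% and 4.83% in sham members and 6.51% and 6.91% in CCI members, and its part in these changes was not tested. Among 76 nuclear genes of oxidative phosphorylation none passed in *Sprr1a*- members, where their median log2 fold change was -0.0032. In *Sprr1a*+ members 6 of the 76 rose and 1 fell with a median of 0.13, where 9.2% of all genes tested rose and 7.08% fell.

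Cytoplasmic ribosomal protein genes rose in part. In *Sprr1a*- members 6 of 77 rose, among them *Rpl12*, *Rps12* and *Rps25*, with a median of 0.11 over the list, where 0.318% of all genes tested rose. *Rps12* rose from 248 and 272 to 431 and 411 CPM (0.77 ± 0.10). In *Sprr1a*+ members 39 rose and *Rpl21* fell, with a median of 0.51, where 9.2% of all genes tested rose and 7.08% fell. *Rpl35* rose there from 365 and 435 to 811 and 894 CPM (1.35 ± 0.13). Of 7 immediate early genes that dissociation can induce, none passed in *Sprr1a*- members. In *Sprr1a*+ members *Fos* and *Fosb* fell by 2.15 ± 0.32 and 2.48 ± 0.75 on the log2 scale and *Dusp1*, a phosphatase of MAP kinases, rose by 1.79 ± 0.21. *Fosb* rested on 0 and 2 UMIs, under the floor of 3 UMIs, and *Fos* on 5 and 6 UMIs.

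*Apoe*, a gene of satellite glia, fell in *Sprr1a*- members from 300 and 367 to 172 and 209 CPM (-0.74 ± 0.13, edgeR adjusted p = 0.031), and its change was 0.58 when CCI members with any *Sprr1a* UMI were left out. In *Sprr1a*+ members it stood at 220 CPM in Male-CCI and 12.6 CPM in Female-CCI.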
